A study of Homo sapiens with 6 samples.

Results

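The genes described here are 10 human clade B serpins, several of them known from squamous epithelium and others, such as SERPINB1 and SERPINB10, from blood cells. They are SERPINB1, SERPINB3, SERPINB4, SERPINB5, SERPINB7, SERPINB8, SERPINB10, SERPINB11, SERPINB12 and SERPINB13. The genes were picked by name, each through the probe set that carries its symbol and no other, and all 10 were among the 18417 genes that the arrays measured in this way. Each of them had 1 such probe set. Total RNA of 2 lines was hybridised to Affymetrix HuGene arrays, with 3 arrays for untransfected MCF10A cells and 3 for the MCF10A-SNAI1 line. MCF10A is a non-tumorigenic, immortalized line of human breast epithelium, and both lines are of this origin and were grown in mammary epithelial medium with cholera toxin. MCF10A-SNAI1 cells carry a plasmid for Flag-tagged SNAI1 under a CMV enhancer and chicken beta-actin promoter and were selected with puromycin. The controls went through neither step, and per the study's methods the lines came from different laboratories, so transfection, selection, the separate stocks and SNAI1 cannot be told apart. The sources used here do not say whether the selected line is 1 clone.

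Serpins are protease inhibitors that offer the protease an exposed reactive loop as bait. When the loop is cut, the serpin snaps into a new shape and the protease stays trapped on it. Clade B serpins lack a classical secretion signal and mostly act inside the cell, where they are thought to guard it against proteases that leak from its own lysosomes or come from leukocytes. Several of them are made in the upper layers of skin and other squamous epithelia, and SERPINB5, called maspin, was described as a gene that normal mammary epithelium expresses and breast carcinoma cells often lose.

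In RefSeq annotation of GRCh38.p14, 9 of the 10 genes lie in 1 cluster on chromosome 18, and SERPINB1 lies on chromosome 6. Promoter windows from 250 bases before to 50 bases after an annotated start were taken from RefSeq for 8 of the 10 genes, 11 windows in all. SERPINB10 and SERPINB11 had no entry. The windows of the 5 genes that passed the adjusted p threshold between the lines are shown because the arrays separate these genes from the rest. They are chr18:63476708-63477007 (plus strand), chr18:63587093-63587392 (plus strand), chr18:63969831-63970130 (plus strand), chr18:63775168-63775467 (plus strand, for SERPINB7) and chr6:2841814-2842113 (minus strand). Capitals mark the letters CAGGTG or their reverse complement CACCTG, the E-box form that Snail proteins are known to bind, and the letters TGANTCA, which AP-1 factors are known to bind. Both strands were searched, and the motifs do not overlap each other.
SERPINB5: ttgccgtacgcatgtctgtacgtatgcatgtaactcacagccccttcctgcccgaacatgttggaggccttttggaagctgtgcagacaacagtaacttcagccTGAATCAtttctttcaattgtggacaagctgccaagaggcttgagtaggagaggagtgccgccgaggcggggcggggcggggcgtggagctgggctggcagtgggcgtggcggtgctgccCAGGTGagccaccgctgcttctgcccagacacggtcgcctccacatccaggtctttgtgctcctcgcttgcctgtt
SERPINB13: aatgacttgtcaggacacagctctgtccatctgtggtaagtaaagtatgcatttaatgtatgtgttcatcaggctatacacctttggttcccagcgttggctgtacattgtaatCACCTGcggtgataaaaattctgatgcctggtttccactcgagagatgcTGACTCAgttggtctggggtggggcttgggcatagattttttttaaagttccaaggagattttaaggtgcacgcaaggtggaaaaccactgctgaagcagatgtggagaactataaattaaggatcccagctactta
SERPINB8: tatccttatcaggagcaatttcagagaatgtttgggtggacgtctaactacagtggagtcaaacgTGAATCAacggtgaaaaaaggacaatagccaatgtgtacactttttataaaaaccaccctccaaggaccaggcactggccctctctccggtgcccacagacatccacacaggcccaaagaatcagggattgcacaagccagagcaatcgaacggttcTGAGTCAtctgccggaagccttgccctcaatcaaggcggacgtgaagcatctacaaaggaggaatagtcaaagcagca
SERPINB7: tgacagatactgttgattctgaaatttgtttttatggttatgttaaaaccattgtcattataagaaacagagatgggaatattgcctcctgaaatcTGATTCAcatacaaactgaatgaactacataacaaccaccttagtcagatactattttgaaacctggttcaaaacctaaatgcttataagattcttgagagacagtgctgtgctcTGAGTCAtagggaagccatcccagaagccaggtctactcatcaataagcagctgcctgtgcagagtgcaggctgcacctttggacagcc
SERPINB1: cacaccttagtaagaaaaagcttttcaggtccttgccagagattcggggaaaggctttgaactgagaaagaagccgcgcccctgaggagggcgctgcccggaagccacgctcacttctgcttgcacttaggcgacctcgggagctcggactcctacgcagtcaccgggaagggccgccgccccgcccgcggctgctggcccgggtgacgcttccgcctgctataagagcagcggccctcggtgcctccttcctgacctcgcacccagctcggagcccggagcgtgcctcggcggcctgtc

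The AP-1 letters were found in 6 of the 11 member windows, belonging to SERPINB5, SERPINB7, SERPINB8, SERPINB12 and SERPINB13, against 7.71% of all 35116 RefSeq windows. Each of the 4 members that were lower in MCF10A-SNAI1 cells had them in at least 1 window. SERPINB12 had them too, at a log2 fold change of 0.08 (adjusted p = 0.635 from limma). SERPINB1, SERPINB3 and SERPINB4 had none. The means of SERPINB3, SERPINB4 and SERPINB12 were under 3.94 in each line, so background signal could hide a fall. A link between the AP-1 letters and the differences was not tested. In SERPINB8 the AP-1 letters lay 185 and 28 bases before the start, in SERPINB13 87 bases before it and in SERPINB5 146 bases before it. SERPINB7 has 3 annotated starts. The window shown above held the letters 154 and 39 bases before the start, and it was shown after the search because it holds them. Another SERPINB7 window also held 2 matches, and the window from 63752807 to 63753106 held none. The E-box letters were found in 2 of the 11 windows, 26 bases before the start of SERPINB5 and 136 bases before that of SERPINB13, against 20.6% of all windows. This count lay close to the share of all windows. SERPINB5 and SERPINB13 were also the members with the largest differences between the lines, and a link to the letters was not tested. The GC content of the 11 windows ran from 29.7% to 65.7%, lowest in 1 window of SERPINB7 and highest in SERPINB1. A match is a description of letters and shows no binding, and the windows were not compared by a test.

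SERPINB5 was the member with the largest difference between the lines and was 3.17-fold lower in MCF10A-SNAI1 cells. SERPINB13, SERPINB8 and SERPINB7 were also lower, SERPINB1 was higher, and the other 5 members did not pass the test. A gene was called when limma, fitted on the log2 values of all probe sets, gave an adjusted p below 0.01 together with more than a 2-fold difference. By this rule 1 of the 10 members was called, SERPINB5, against 5.64% of all genes, and among all genes 2.54% were called lower. At the adjusted p alone, 5 of the 10 members passed, against 23.2% of all genes. Of these, 4 were lower, against 11.2% of all genes, and 1 was higher, against 12.1%. The arrays of the lines did not overlap for 6 members, against 48.3% of all genes, so this count lay close to the background. The median log2 fold change of the members, MCF10A-SNAI1 minus MCF10A, was -0.156, beside -0.0132 over all genes.

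**Figure D1:**
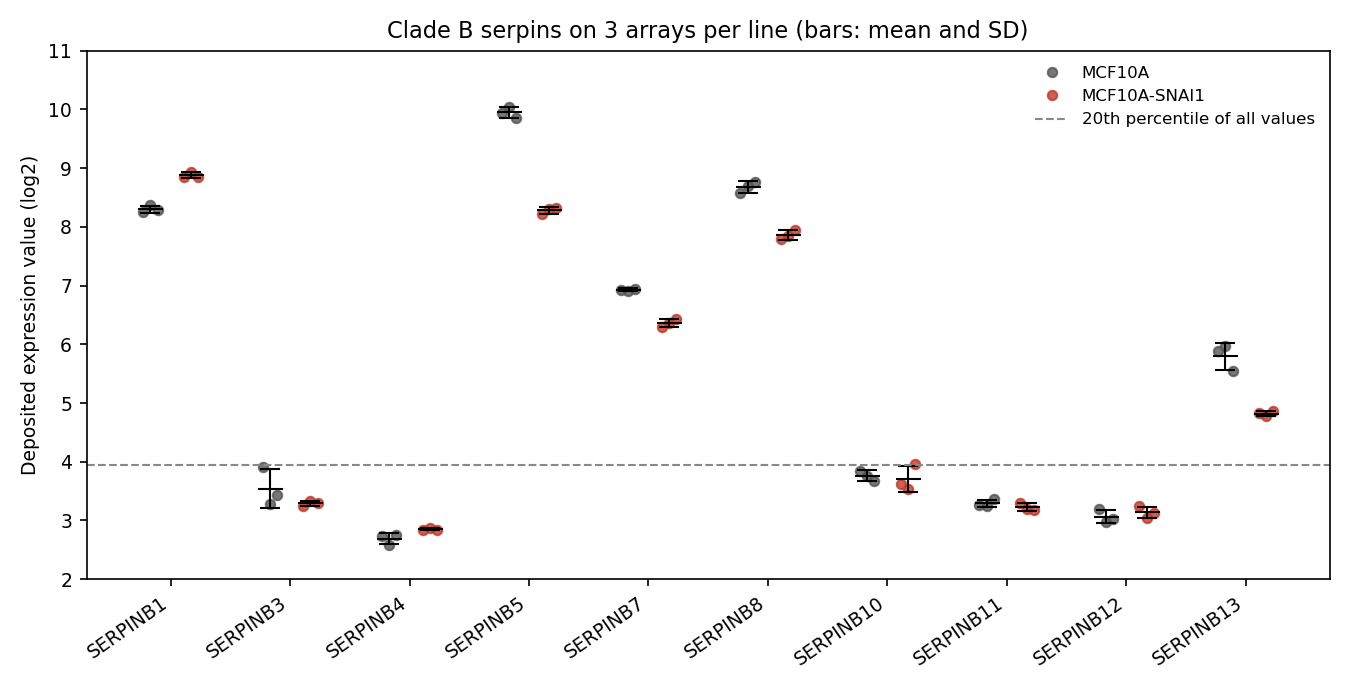
Deposited log2 expression value (vertical axis) of each clade B serpin on the 3 arrays of MCF10A (grey points) and of MCF10A-SNAI1 (red points), with black bars for mean and SD. SERPINB5 lies at 9.86 to 10.04 in MCF10A and at 8.22 to 8.32 in MCF10A-SNAI1 cells, and the means of 5 members lie below the dashed line, the 20th percentile of all values at 3.94. Heights of different genes come from different probes and are not comparable.

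The labels held for the targeted gene. SNAI1 measured 5.76 ± 0.037 (SD, n = 3 arrays) in the control line against 10.51 ± 0.015 (SD, n = 3 arrays) in the SNAI1 line, and CDH1, the E-cadherin gene, had a log2 fold change of -3.97. The medians of the arrays ran from 6.04 to 6.09, and within a line the arrays correlated at 0.995 to 0.996 over probe sets. All 7 measured genes of a list of 9 mammary epithelial markers passed the adjusted p in the downward direction, against 11.2% of all genes. The mean level of these 7 was 11.3 on each MCF10A array and 7.60 to 7.70 on the MCF10A-SNAI1 arrays. Of 8 measured leukocyte markers none was called, with mean levels of 4.61 to 4.70 and 4.52 to 4.71 in the lines, and none of 5 endothelial markers was called. Over all genes 5.64% were called, so lists this short with none called lie close to that share. The table holds log2 values without detection calls, so no marker can be called absent. A bulk array cannot tell fewer cells that express a gene from less RNA per cell.

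SERPINB5 keeps the serpin fold but is not known to inhibit a protease through its loop, and it is counted among the non-inhibitory members. Its values were 9.94, 10.04 and 9.86 on the MCF10A arrays and 8.22, 8.31 and 8.32 on the MCF10A-SNAI1 arrays. Every array of the SNAI1 line thus lay below every control array, with a gap of 1.54 between the nearest arrays. The mean fell from 9.95 ± 0.091 (SD, n = 3 arrays) to 8.28 ± 0.057 (SD, n = 3 arrays), a log2 fold change of -1.66 with a standard error of 0.071 (95% interval -1.83 to -1.49, adjusted p = 8.25e-06 from limma). Only 1.02% of all genes had a lower log2 fold change. Both lines lay outside the lowest 20% of all values.

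SERPINB13, or headpin, is made by keratinocytes and inhibits the cysteine cathepsins K and L. It was measured at 5.89, 5.97 and 5.55 in MCF10A and at 4.83, 4.78 and 4.86 in MCF10A-SNAI1 cells. The lines did not overlap, and MCF10A replicate 3 was the lowest of the controls. The log2 fold change was -0.98 (95% interval -1.25 to -0.71, adjusted p = 0.000819 from limma), a 1.97-fold difference that missed the fold threshold by little. Without MCF10A replicate 3 it was -1.11 and SERPINB13 was called, and with the unmoderated test that the study's methods name the adjusted p rose to 0.0147. The means of 5.80 in MCF10A and 4.82 in MCF10A-SNAI1 cells lay below the median of all values, 6.05. Background signal may compress a fold change there.

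SERPINB8 inhibits furin, the protease that matures many secreted and surface proteins, and is made in skin as well as in platelets and monocytes. Its values were 8.58, 8.70 and 8.77 in MCF10A and 7.79, 7.85 and 7.95 in MCF10A-SNAI1 cells, again without overlap. The log2 fold change was -0.82 with a standard error of 0.077 (adjusted p = 0.000293 from limma), 1.77-fold lower and under the fold threshold. SERPINB7, called megsin, is a serpin of the upper epidermis. It was at 6.93, 6.91 and 6.95 in MCF10A and at 6.29, 6.36 and 6.43 in MCF10A-SNAI1 cells. These arrays did not overlap either, and the difference was smaller, at a log2 fold change of -0.57 (95% interval -0.72 to -0.42, adjusted p = 0.000631 from limma), or 1.48-fold.

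SERPINB1 moved the other way. It is the inhibitor of the neutrophil proteases elastase, proteinase 3 and cathepsin G and is expressed in leukocytes and many epithelia. Its values were 8.26, 8.37 and 8.28 in MCF10A and 8.85, 8.94 and 8.85 in MCF10A-SNAI1 cells, so every array of the SNAI1 line lay above the controls. The log2 fold change of 0.58 (95% interval 0.43 to 0.73, adjusted p = 0.000642 from limma) was 1.49-fold and under the fold threshold, and 92.3% of all genes had a lower one. None of the 8 leukocyte markers given above passed the adjusted p, against 23.2% of all genes. Their mean levels on the arrays, 4.52 to 4.71, lay below the median of all values, 6.05, where a change is hard to see. This count therefore gives no reading on SERPINB1. The cause of the SERPINB1 difference was not tested.

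**Figure D2:**
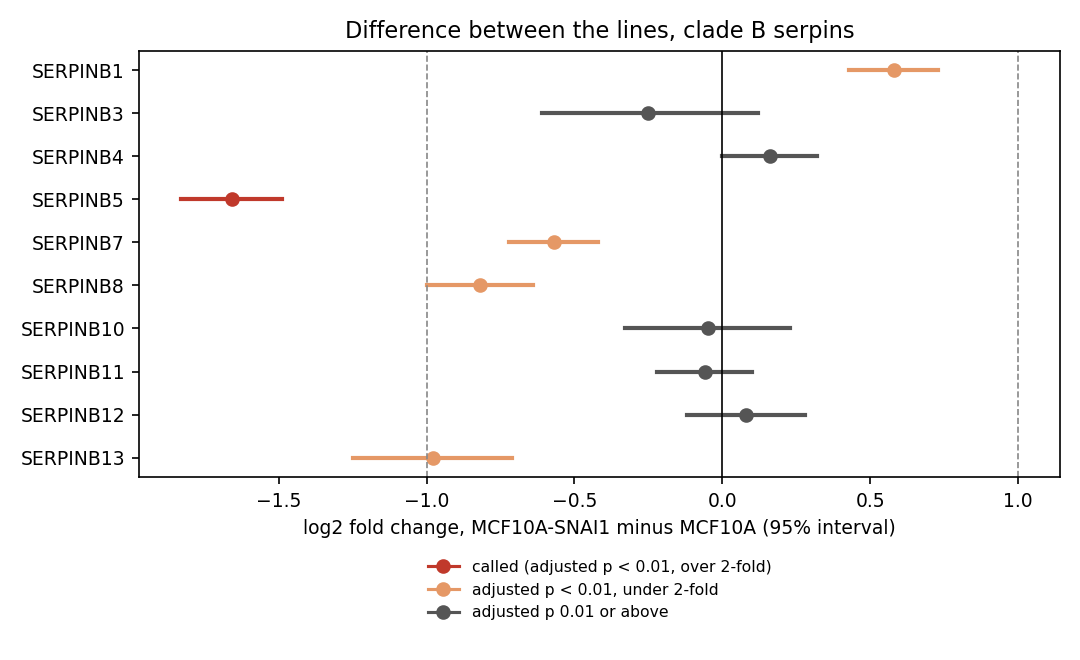
Log2 fold change of each clade B serpin, MCF10A-SNAI1 minus MCF10A (horizontal axis, points), with its 95% interval from limma (lines) and dashed lines at 2-fold. The whole interval of SERPINB5 lies beyond 2-fold, SERPINB7, SERPINB8 and SERPINB13 lie to the left of 0, SERPINB1 lies to the right, and the intervals of the other 5 include 0.

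The other 5 members, SERPINB3, SERPINB4, SERPINB10, SERPINB11 and SERPINB12, had means in the lowest 20% of all values in both lines. Their values ran from 2.58 to 3.96 over all 6 arrays, and in this range a fold change can be compressed by background signal. None passed the test, with log2 fold changes of -0.25 to 0.16 and adjusted p values of 0.163 to 0.836 from limma. The lowest of these, that of SERPINB3, was -0.07 without MCF10A replicate 1 and -0.38 without MCF10A replicate 2, and the highest, that of SERPINB4, was 0.10 to 0.20 with single arrays left out. Their intervals together reached from -0.61 to 0.32, so a change of 2-fold on the scale of these values lay outside all of them, although a change of RNA that stays under the background would not be seen.

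SERPINB3 and SERPINB4 are the squamous cell carcinoma antigens, near-identical neighbours of which SERPINB3 inhibits cysteine cathepsins and SERPINB4 cathepsin G and mast cell chymase. Their promoter windows were identical at 296 of 300 aligned bases (98.7%), and the next closest pair of members, SERPINB7 and SERPINB13, reached 50.5%. Because their transcripts are also alike, signal may be shared between their probe sets, which was not tested. SERPINB3 was at 3.91, 3.28 and 3.44 in MCF10A and at 3.25, 3.33 and 3.30 in MCF10A-SNAI1 cells, where the first control array stood apart from the other two. SERPINB4 was at 2.73, 2.58 and 2.76 against 2.84, 2.87 and 2.84, which did not overlap although the log2 fold change of 0.16 did not pass (95% interval -0.004 to 0.324, adjusted p = 0.163 from limma). SERPINB3, SERPINB4, SERPINB11 and SERPINB12, which are known from squamous epithelia, were thus all in the lowest 20% of values in both lines.

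SERPINB10, or bomapin, is a serpin of blood-forming cells, SERPINB11 is an epithelial member without a known protease in humans, and SERPINB12 inhibits trypsin-like proteases. SERPINB10 was at 3.85, 3.75 and 3.67 in MCF10A and at 3.62, 3.54 and 3.96 in MCF10A-SNAI1 cells, so the arrays of the lines were mixed. SERPINB11 ranged from 3.18 to 3.37 and SERPINB12 from 2.97 to 3.24 over the 6 arrays, with overlapping lines in both cases.

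Along the chromosome 18 cluster the order from one end to the other was SERPINB5, SERPINB12, SERPINB13, SERPINB4, SERPINB3, SERPINB11, SERPINB7, SERPINB2, SERPINB10, HMSD and SERPINB8. The 4 members of the cluster that lay outside the lowest 20% of values, SERPINB5, SERPINB13, SERPINB7 and SERPINB8, were all lower in MCF10A-SNAI1 cells. The 5 between them lay in the lowest 20% in both lines, where a change of RNA under the background would not be seen, so whether the lower genes form 1 block cannot be told from these arrays. SERPINB2 and HMSD are not analysed here. VPS4B, an ATPase of endosomal sorting that directly adjoins SERPINB5, was at 9.44 ± 0.096 (SD, n = 3 arrays) and 9.39 ± 0.051 (SD, n = 3 arrays), with a log2 fold change of -0.05 (adjusted p = 0.717 from limma). On the side of SERPINB8 the next measured coding gene, the cadherin gene CDH7, stood at -0.13 (adjusted p = 0.388 from limma). Of 10 measured coding genes, 5 on each side of the cluster, none was called lower and 1 was called higher. Over all genes 5.64% were called. The neighbour called higher was DSEL, an enzyme of dermatan sulfate synthesis, at a log2 fold change of 2.67. PHLPP1 and CCDC102B, at -0.44 and 0.64, passed the adjusted p without reaching 2-fold.

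**Figure D3:**
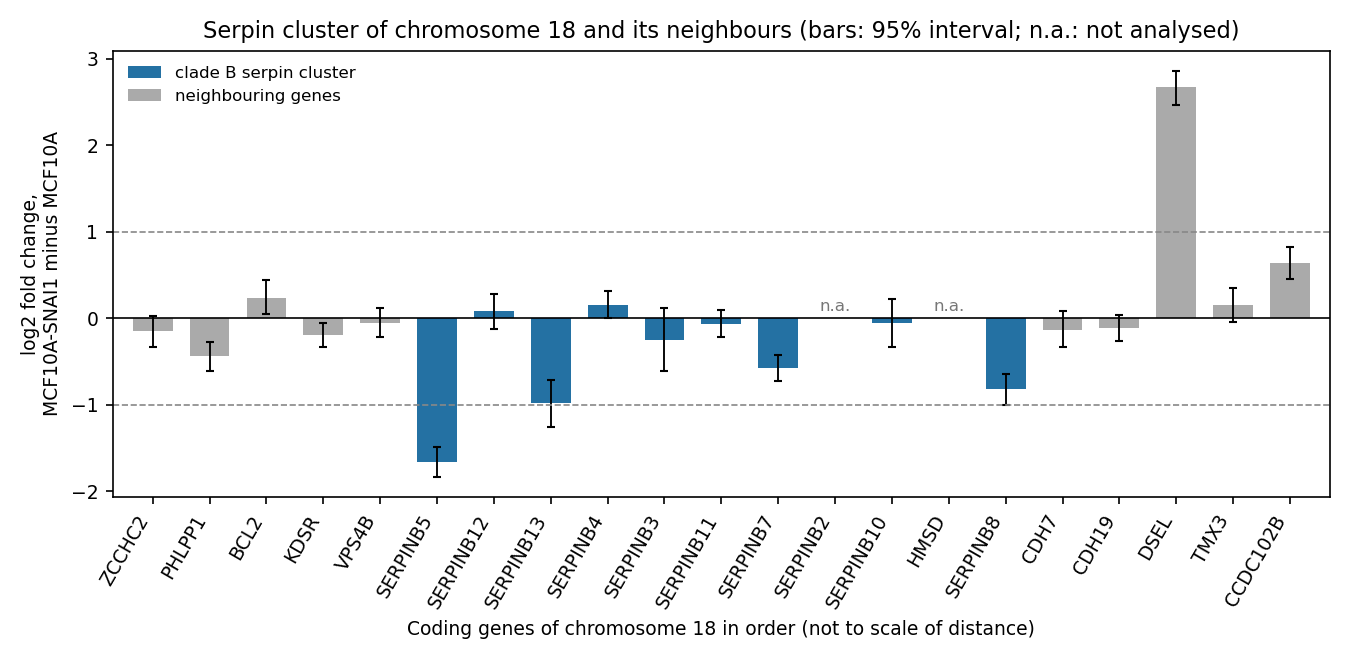
Log2 fold change, MCF10A-SNAI1 minus MCF10A (vertical axis), of the coding genes of the chromosome 18 serpin cluster (blue) and of 5 measured genes on each side (grey), in chromosomal order with even spacing, with 95% intervals as black bars. The 4 lower members run from SERPINB5 at -1.66 to SERPINB7 at -0.57, the 5 other members lie in the lowest 20% of values in both lines and could not show a fall under the background, and DSEL stands at 2.67.

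Of the 3 human clade B serpins outside the member list, 1 was measured. SERPINB9, the granzyme B inhibitor that lies near SERPINB1 on chromosome 6, was at 4.82, 4.85 and 5.14 in MCF10A and at 4.80, 5.15 and 4.81 in MCF10A-SNAI1 cells. The lines overlapped fully, and the log2 fold change was -0.01 (95% interval -0.32 to 0.29, adjusted p = 0.969 from limma). Its means of 4.93 and 4.92 lay below the median of all values, 6.05, and background signal may hide a change there. SERPINB2 and SERPINB6 are not analysed here.

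Serpins of other clades are mostly secreted. Of 20 measured genes, 1 was called lower and none was called higher, close to the 5.64% of all genes called. At the adjusted p alone 4 of the 20 passed, 3 of them under 2-fold, close to the 23.2% of all genes. The median log2 fold change was -0.0384. SERPINA1, the antitrypsin that blocks neutrophil elastase outside cells, was at 8.59, 8.23 and 8.41 in MCF10A and at 5.83, 5.93 and 6.08 in MCF10A-SNAI1 cells. It fell 5.50-fold (log2 fold change -2.46 ± 0.11 standard error, limma adjusted p = 9.61e-06). It shares neutrophil elastase as a target with SERPINB1, which was higher, and a link between their levels was not tested. The collagen chaperone SERPINH1 was higher at a log2 fold change of 0.69, and protease nexin SERPINE2 and neuroserpin SERPINI1 were lower at -0.49 and -0.62, all under 2-fold.

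Of 15 measured genes of proteases that clade B serpins are known to inhibit, 2 were called lower, 1 was called higher and 12 were not called. Over all genes 5.64% were called. At the adjusted p alone 4 of the 15 passed and 11 did not, a share close to the 23.2% of all genes, with a median log2 fold change of -0.0178. Cathepsin V, CTSV, a lysosomal cysteine protease of epithelia, was at 7.11, 7.02 and 7.24 in MCF10A and at 4.92, 5.25 and 5.09 in MCF10A-SNAI1 cells. It fell 4.10-fold (log2 fold change -2.03 ± 0.10 standard error, limma adjusted p = 1.68e-05). Cathepsin K, CTSK, a collagen-degrading cysteine protease and a target of SERPINB13, was at 5.61, 5.80 and 5.99 against 6.78, 7.05 and 6.98. It rose 2.21-fold (log2 fold change 1.14 ± 0.12 standard error, limma adjusted p = 0.000443). SERPINB13, at -0.98, was not called, and a link between its level and that of CTSK was not tested. CTSK was not called by the unmoderated test of the study's methods. The other target of SERPINB13, cathepsin L or CTSL, stood at 0.22 (adjusted p = 0.0542 from limma).

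The urokinase gene PLAU, a target of SERPINB2, was the other gene called lower, at -4.18, and PLAT was higher at 0.43 and under 2-fold. FURIN, the target of SERPINB8, stood at -0.22 (adjusted p = 0.0403 from limma). The targets of SERPINB1, ELANE, PRTN3 and CTSG, stood at -0.02, -0.08 and -0.16 and did not pass. These 3 proteases are known from myeloid cells.

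**Figure D4:**
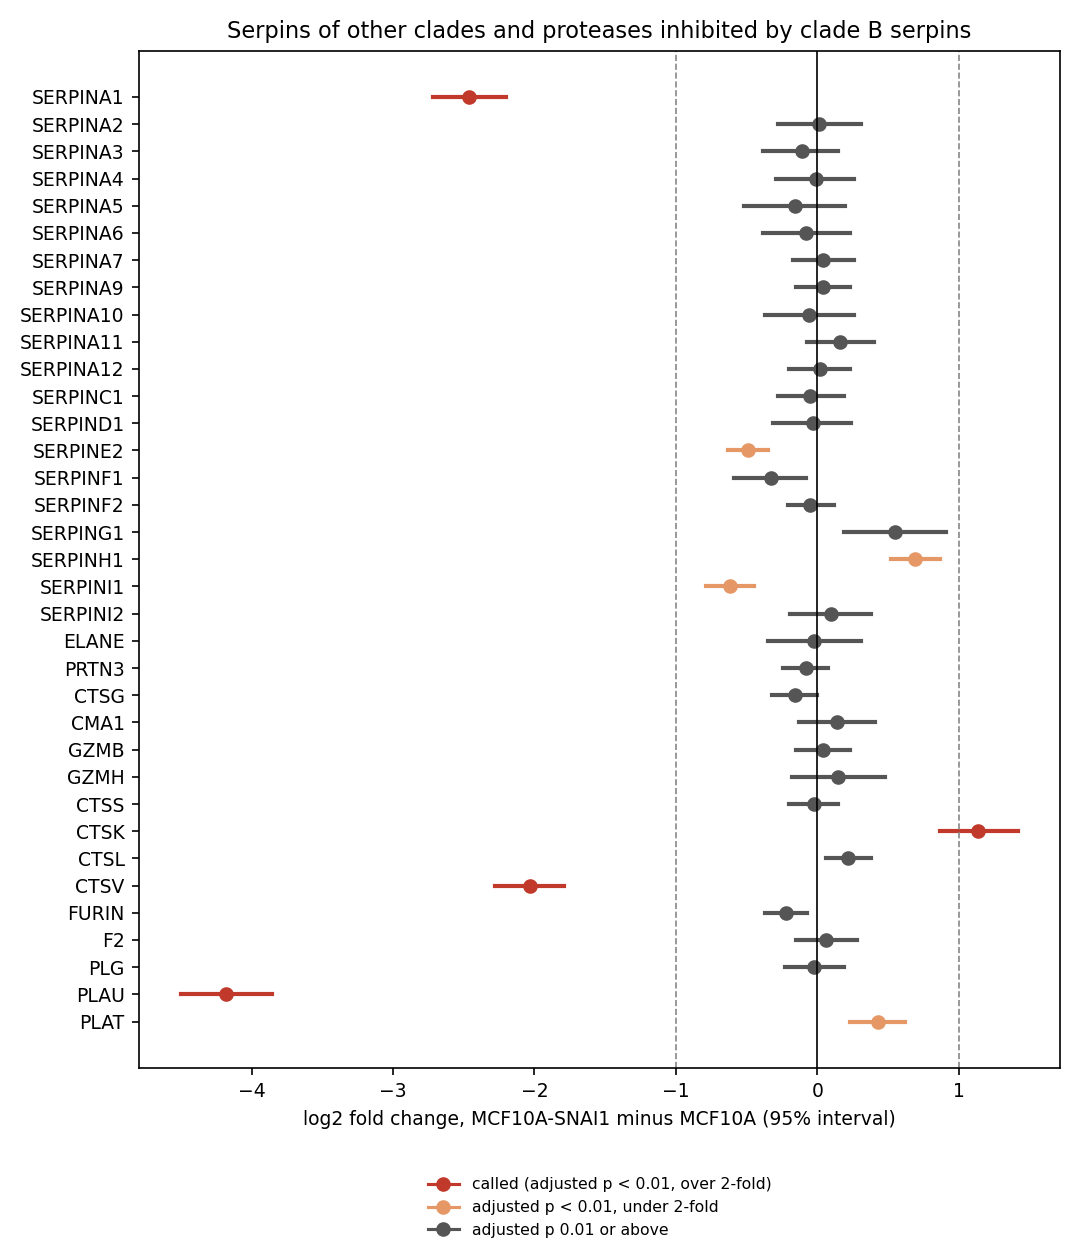
Log2 fold change, MCF10A-SNAI1 minus MCF10A (horizontal axis, points), with 95% intervals (lines) of 20 serpins of other clades (SERPINA1 to SERPINI2) and 15 proteases known to be inhibited by clade B serpins (ELANE to PLAT), with dashed lines at 2-fold. SERPINA1, CTSV and PLAU lie beyond 2-fold on the left and CTSK on the right.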

How the data were processed

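Total RNA from 6 samples was measured on Affymetrix HuGene 1.0 ST arrays. The deposited table holds 33297 probe sets, which the authors gave on a log2 scale. GC RMA in GeneSpring GX is stated in the study's methods, whereas the submitters' processing notes list Affymetrix Expression Console 1.1, GCOS and MAS5, so the program that made the table is unsettled. The values were used unchanged. Differential expression was computed with limma 3.58.1 in R 4.3.3 across all probe sets, with Benjamini-Hochberg adjustment over all of them, and thresholds were those of the study's methods. The fit was tested on simulated data. Probe sets with 1 symbol numbered 19460, and the brightest per gene was used. The design text calls the replicates biological, and p-values measure the spread between 3 arrays per line, whose number limits the precision. No scan batches are given. Intervals are moderated 95% intervals.

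The members and gene lists were chosen with earlier results of these data known. Named genes were the members, the other clade B serpins, SNAI1, CDH1, the genes adjoining the cluster and up to 4 called genes per list and direction. Further genes were chosen after their values were seen. Of these, KRT16 and SPRR1B were called. SERPINH1, SERPINE2, SERPINI1, PLAT, CTSL, FURIN, ELANE, PRTN3, CTSG, PHLPP1, CCDC102B and TGM1 were named without being called. The squamous genes that did not pass were also named after their values were seen. Promoter windows were read from RefSeq, GRCh38.p14, and aligned with Biopython 1.88. Alternatives were quantile normalization, median centring, leaving out each array, the methods' t-test, a replicate block, filters on dim probe sets, trended robust moderation, dropping the fold threshold and averaging a gene's probe sets.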

Additional observations from a re-analysis of the deposited data

How the results depend on the processing

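SERPINB5 was called under all 15 alternatives, with log2 fold changes of -1.71 to -1.62. The number of members called was 1 to 2 when single arrays were left out, with SERPINB13 joining SERPINB5 without MCF10A replicate 3. With no fold threshold it was 5, serpins of other clades went from 1 to 4 and the neighbours of the chromosome 18 cluster from 1 to 3, which the dropped threshold itself brings about. With the replicate block 1 member was called, SERPINB5, and no count of a list changed. Deviations from the line means correlated at 0.115, 0.122 and -0.006 between arrays of the same number. Between arrays of different number they correlated at -0.134 to 0.034. Whether arrays of the same number share a batch was not tested. The methods' t-test lost CTSK and SPRR1B. With single arrays left out, SERPINB10 ranged from -0.18 to 0.03 and was above 0 without MCF10A-SNAI1 replicate 2. SERPINB9 ranged from -0.13 to 0.09 and was above 0 in 3 of these fits, at 0.09 without MCF10A replicate 3 and at 0.05 and 0.04 with MCF10A-SNAI1 replicate 1 and then 3 removed. The cause was not tested. The filters on dim probe sets removed the 5 dimmest members, and the stricter one also SERPINB13 and SERPINB9. The step for a linear table was not run, as the table is already on a log2 scale. Low signal over background limits what can be said of these members.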

Other observations

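Other genes of stratified squamous epithelium were measured beside the serpins. Of 14 measured genes of a list of 17, 6 were called, all of them lower. Over all genes 5.64% were called and 2.54% were called lower. At the adjusted p alone 7 of the 14 passed, 1 of them without reaching 2-fold, against 23.2% of all genes. The median log2 fold change was -0.416. KRT16, a keratin of activated keratinocytes, was at 8.56, 8.52 and 8.58 in MCF10A and at 6.76, 6.49 and 6.54 in MCF10A-SNAI1 cells, and it fell 3.89-fold (log2 fold change -1.96, adjusted p = 8.51e-06 from limma). SPRR1B, a precursor of the cornified envelope, was at 6.78, 6.78 and 6.70 against 4.78, 5.33 and 5.43, a log2 fold change of -1.57 (adjusted p = 0.000475 from limma), and was not called by the unmoderated test of the study's methods. SFN, the epithelial 14-3-3 protein stratifin, fell 5.15-fold at -2.36, and the others called were DSG3 at -5.06, KRT14 at -4.76 and KRT5 at -2.23. KRT14 and KRT5 also belong to the mammary epithelial markers given above and are counted in both lists. TGM1, the transglutaminase that cross-links the envelope, was lower at -0.47 and under 2-fold. The 7 that did not pass the adjusted p lay between -0.36 and 0.07. They were IVL, SPRR1A, KRT10, KRT1, S100A7, PKP1 and CNFN. TP63, KRT6A and LGALS7 are not analysed here.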
